A study of Mus musculus with 5 samples.

Results

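Laminins, nidogens and perlecan are the non-collagen proteins of the basement membrane, the thin sheet of matrix under epithelia and around vessels, muscle and nerve. The genes were taken by name from a list of 10, and 9 of them were measured among 20097 gene names: Lama1, Lama2, Lama4, Lama5, Lamb1, Lamc1, Nid1, Nid2 and Hspg2. Lamb2, which encodes the laminin beta 2 chain, was not analysed here. RNA came from pituitaries of mouse embryos of strain background B6;129 at e12.5. The control group was 3 embryos of genotype Itgb1 f/f (libraries 9, 10 and 12), and the knockout group was 2 littermates of genotype Itgb1 f/f; Pitx1-cre (libraries 13 and 16). Both groups thus carried floxed alleles of Itgb1, the gene of integrin beta 1, and only the knockout group carried the Cre transgene, driven by Pitx1 in oral ectoderm and pituitary. Cells outside that domain, such as those of vessels, keep their floxed alleles.

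A laminin is a trimer of an alpha, a beta and a gamma chain joined by a coiled coil. The alpha chain ends in globular domains that bind receptors, mainly integrins with the beta 1 subunit and dystroglycan, and laminins join end to end into a sheet at the cell surface. Nidogens link this sheet to the collagen IV network, and perlecan, a large heparan sulfate proteoglycan, binds both and holds growth factors. In the developing pituitary a basement membrane surrounds the epithelium of Rathke's pouch and separates it from the mesenchyme and capillaries.

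Values are sequencing tags per 10000000 total tags over a whole gene region, introns included, and are called the deposited level. Reads recovered over the listed genes numbered 4480809 to 6143263 per library, and the labels describe separate biological replicates. The library labelled knockout 16 stood apart: genes of odorant and vomeronasal receptors, which most tissues do not express, held 1.496 tags per kilobase there, against 0.472 in the library labelled knockout 13 and 0.157 to 0.392 in the controls. The deposited level also rose with the length of the gene region, with a rank correlation over genes (Spearman) of 0.94 in library 16 and of 0.68 to 0.76 in the other 4, as a description, since genes are not independent. This background was therefore subtracted in proportion to region length, and the rest was divided by a factor per library from the trimmed mean of gene ratios (TMM), which gives the subtracted level. The targeted gene Itgb1 had deposited levels of 272.73, 426.36 and 430.91 in the controls, against 446.36 for library 13 and 186.36 for library 16. Its subtracted levels were 398.7, 372.0 and 448.0 in the controls, against 276.2 for library 13 and 120.5 for library 16, so library 13 lay above the controls on the first scale and below them on the second. The region is the whole gene and not the floxed part.

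The regions of the 9 genes ran from 48.7 kb (Lama5, mm9 chromosome 2, 179911478 to 179960164) to 634.9 kb (Lama2, mm9 chromosome 10, 26701492 to 27336348). Exons of protein-coding transcripts in GENCODE M21 came to 23.39% of that length for Lama5, 14.07% for Hspg2 and 1.55% for Lama2, and to 4.2% to 9.19% for the other 6. No other listed gene region overlapped any of the 9. The share of a gene's tags that the background accounted for followed its length and library. For Lama2 it was 84.8%, 58.6% and 36.2% in the controls, against 63.6% for library 13 and 98.1% for library 16. For the other 8 genes it was 4.4% to 44.8% in the controls and 39.3% to 74.0% in library 16.

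**Figure D1:**
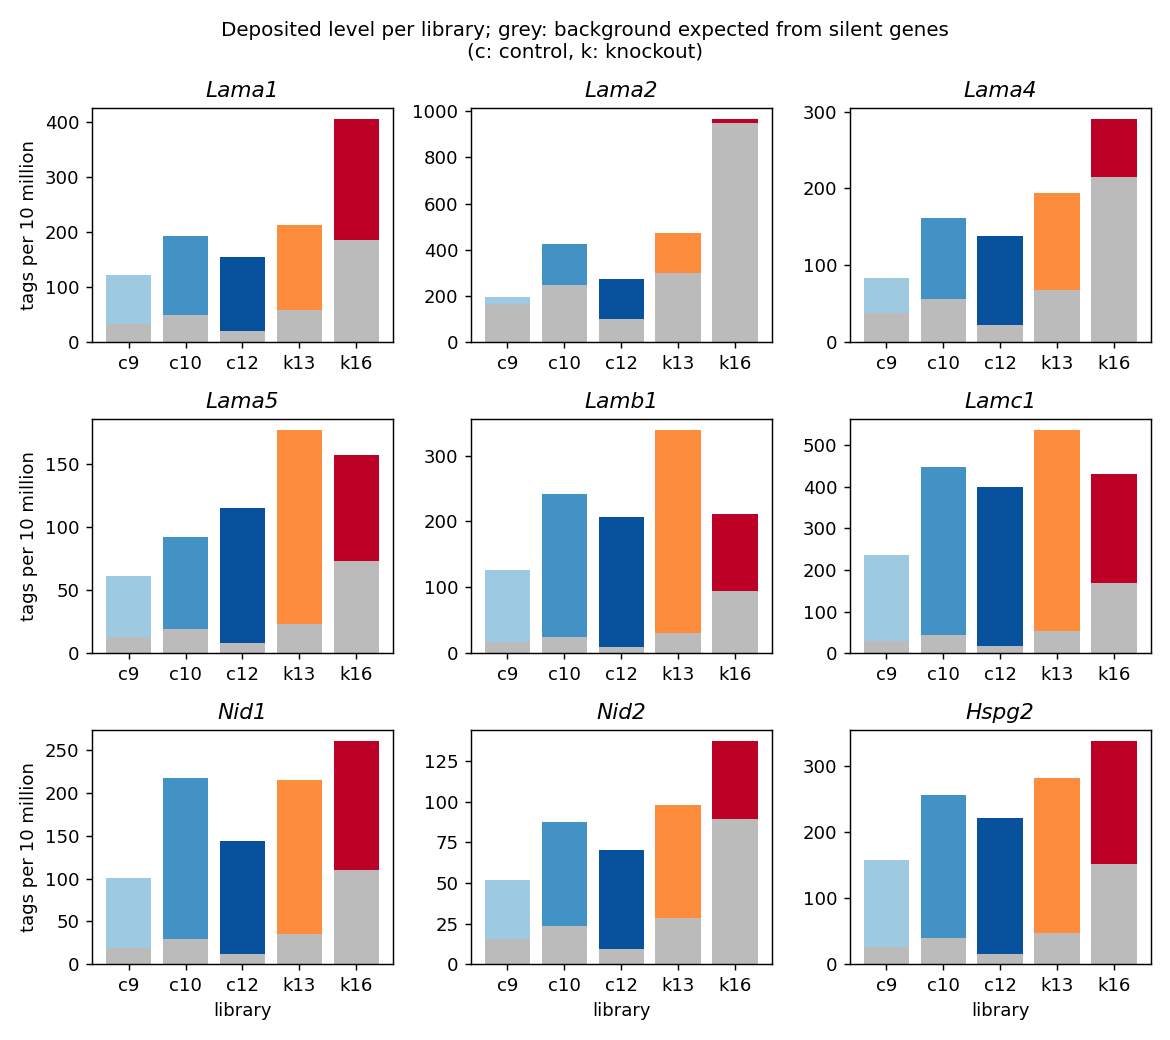
Deposited level (tags per 10000000, vertical axis) of each gene in the 5 libraries, with the grey part of each bar the background expected from silent genes for a region of that length. In Lama2 the grey part is 949.8 of 968.18 tags in knockout library 16.

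RefSeq promoters (build GRCm38.p6) were matched for 5 of the 9 genes. The 3 printed here are those of Hspg2, which lay below every control in both knockout libraries on all 3 TMM scales, Lamb1, the highest of the matched genes per exon length, and Lama2, the gene closest to background. Each run covers the bases from 250 to 51 before the annotated start of the gene, 5′ to 3′ on the gene's strand, and capitals mark GC boxes, the letters GGGCGG or their reverse complement CCGCCC.
Hspg2 (chr4:137468553-137468752, plus strand): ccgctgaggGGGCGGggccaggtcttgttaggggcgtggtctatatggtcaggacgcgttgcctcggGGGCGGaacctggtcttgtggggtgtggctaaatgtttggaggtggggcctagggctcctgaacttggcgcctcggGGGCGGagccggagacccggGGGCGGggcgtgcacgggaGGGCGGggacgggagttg
Lamb1 (chr12:31265043-31265242, plus strand): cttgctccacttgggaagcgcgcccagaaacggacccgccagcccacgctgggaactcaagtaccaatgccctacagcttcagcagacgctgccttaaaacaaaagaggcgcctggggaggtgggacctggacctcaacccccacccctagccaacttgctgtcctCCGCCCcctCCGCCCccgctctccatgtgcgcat
Lama2 (chr10:27616993-27617192, minus strand): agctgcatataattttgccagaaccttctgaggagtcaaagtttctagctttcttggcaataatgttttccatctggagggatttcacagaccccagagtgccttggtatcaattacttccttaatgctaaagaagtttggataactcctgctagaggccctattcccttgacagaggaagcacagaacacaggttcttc
The Hspg2 window held 5 GC boxes, 17 CpG dinucleotides and 70% G and C, and the Lamb1 window held 2 GC boxes, 11 CpG and 63.5%. The Lama2 window held none of these boxes, no CpG and 43% G and C. Lama5 and Nid1 had 3 and 1 GC boxes. A GC box was found in 24.6% of 32851 RefSeq windows of this length, whose medians were 51.5% G and C and 4 CpG. The letters TATAAA, on either strand, were in 9.14% of all windows and in none of the 5. These matches describe letters and no binding.

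Per kilobase of exon, a scale that adjusts for exon length but not for tags in introns, the laminin chains shared by most trimers led the controls. In library 16 Lamb1 had rank 4. Lamc1 led in the controls at a subtracted level of 47.7 ± 5.81 per kilobase of exon (SD, n = 3), followed by Lamb1 at 32.7 ± 3.51 and Nid1 at 24.0 ± 3.96. The control ranges of these 3 genes did not overlap. Lama4 (15.9 ± 4.34), Lama1 (14.5 ± 0.617), Hspg2 (14.4 ± 0.726), Lama2 (13.3 ± 7.64) and Nid2 (12.2 ± 0.884) came next. Each neighbour in that run of 5 overlapped the next, and Nid1 above it did not overlap Lama4. Lama5 was lowest at 7.45 ± 2.25. Per kilobase of region Hspg2 moved to rank 3, Lama5 to rank 5 and Lama4 to rank 8, while Lamc1 and Lamb1 kept ranks 1 and 2. Total RNA holds unspliced transcripts, so tags in introns also count in the scale per exon. Summed per exon length, the 4 alpha chains stood at 37.2, 51.8 and 64.2 in the controls, beside 28.8, 33.9 and 35.6 for Lamb1 and 41.6, 48.2 and 53.2 for Lamc1. In library 13 the alpha sum was 44.4, with Lamb1 at 34.5 and Lamc1 at 41.3. In library 16 it was 46.7, with Lamb1 at 20.6 and Lamc1 at 35.6. The alpha sum includes Lama2, whose tags in library 16 were 98.1% background. Its subtracted level there was 19.1 with the receptor genes and 156.5 with a second set of silent genes. The sum in library 16 thus depends on the background used.

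**Figure D2:**
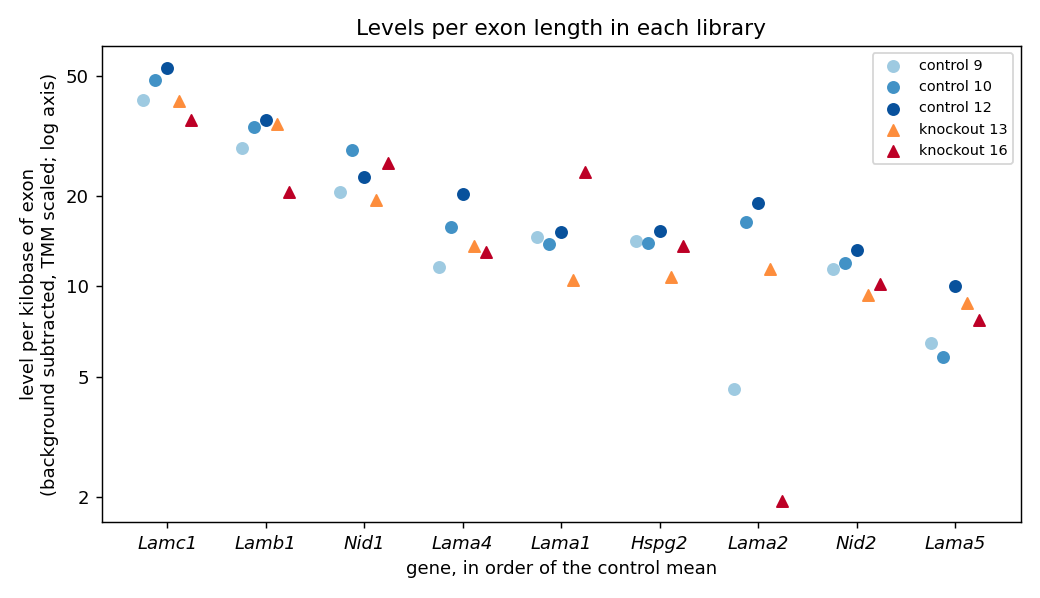
Subtracted level per kilobase of exon (log axis) of the 9 genes in each library, ordered by the control mean, with circles for controls and triangles for knockout libraries. Lamc1 is highest in every library, Lama1 of library 16 sits above its controls and Lama2 of library 16 far below with the receptor gene background used here.

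The main comparison asked which of these genes differed between the knockout and control pituitaries. None passed the test: limma on TMM-scaled log2 values, adjusted over 19313 genes, called 0 of the 9 genes and 0% of all genes. None of the 9 had an unadjusted p under 0.05, against 386 of all genes (2%). The edgeR quasi-likelihood test on recovered reads also called 0 genes, and DESeq2 called 25 genes, none of these 9. Fitted log2 changes are given relative to the median tested gene, whose own change was 0.04 after TMM scaling and 0.97 before it. The median change of the 9 genes was -0.28, with 8 below the median gene and only Lama2 above it. On subtracted levels it was also -0.28, with 7 below and with Lama1 and Lama5 above. Both knockout libraries lay below every control for Hspg2, Nid1 and Nid2 on the TMM scale, where 6.91% of all genes did, and for no gene above every control, where 8.43% did. With background subtracted these were Hspg2, Lamc1 and Nid2, against 7.69% of all genes below and 8.98% above. With the background of a second set of silent genes only Hspg2 and Nid2 were left, beside 5.74% of all genes below and 9.18% above. On deposited levels 6 of the 9 genes lay above every control in both libraries, as did 50.2% of all genes, and none lay below, as did 0.202% of all genes.

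Lamc1 and Lamb1 encode the gamma 1 and beta 1 chains, which occur together in most embryonic laminins. Lamc1 (mm9 chromosome 1, 155066452 to 155179516) had deposited levels of 236.36, 447.27 and 400.91 in the controls, against 537.27 for library 13 and 430 for library 16. Its subtracted levels were 317.1, 367.5 and 405.3 in the controls, against 315.1 for library 13 and 271.4 for library 16. Library 13 thus lay just under the lowest control and library 16 well under it, while on the deposited scale library 13 was the highest of all. With the second silent set library 13, at 348.3, lay within the controls at 326.7 to 419.5, and library 16 stayed below them. The relative log2 change of Lamc1 was -0.58 with an SE of 0.39 (limma, adjusted p = 0.767), and -0.34 with an SE of 0.30 on subtracted levels (limma, adjusted p = 0.828). Before subtraction it was -1.06 without library 13 (limma, adjusted p = 0.0757) and -0.22 without library 16 (limma, adjusted p = 0.9997). In the authors' deposited table Lamc1 had a log2 fold change of -0.1 and a p-value of 0.00365. A second fold column of the authors' deposited table, whose relation to the first is not stated, held 0.666 for Lamc1, or -0.59 on the log2 scale. Over all rows the median ratio of that second fold to the fold from the log2 column was 0.708. Lamb1 (mm9 chromosome 12, 31950959 to 32014504) had deposited levels of 126.36, 241.82 and 206.36 in the controls, against 339.09 for library 13 and 210.91 for library 16. Its subtracted levels were 168.3, 197.8 and 207.7, then 201.3 in library 13 and 120.5 in library 16. The knockout libraries parted here: library 13 was among the controls and library 16 below all of them. Before subtraction the relative change of Lamb1 was -0.51 with an SE of 0.41 (limma, adjusted p = 0.767). On that scale it was 0.032 without library 16 and -1.16 without library 13. On subtracted levels of all libraries it was -0.32 with an SE of 0.34 (limma, adjusted p = 0.839).

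The alpha chains give a laminin its receptor binding and its tissue. Lama1 encodes the alpha 1 chain of early embryonic epithelial basement membranes (mm9 chromosome 17, 68047405 to 68171985). Its subtracted levels were close together in the controls, at 138.7, 132.1 and 143.8, and then 100.3 in library 13 and 228.8 in library 16. The knockout libraries lay on opposite sides of the controls, which themselves spanned a narrow range. On deposited levels Lama1 was at 122.73, 193.64 and 155.45 in the controls, against 212.73 for library 13 and 406.36 for library 16. Its relative change was -0.12 with an SE of 0.35 (limma, adjusted p = 0.937) before subtraction. On subtracted levels it was 0.10 with an SE of 0.40 (limma, adjusted p = 0.935). With background subtracted and without library 13 it was 0.57 (SE 0.13, limma, adjusted p = 0.0468), in a fit that called 15.2% of all genes and in which the lone knockout library is assumed to vary like the controls. Without library 16 it was -0.49 (SE 0.19, limma, adjusted p = 0.999), in a fit that called 0% of all genes.

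Lama2 encodes the alpha 2 chain of muscle and Schwann cell basement membranes, and its level in library 16 depended on the background subtracted. Its deposited level there was 968.18, with a 95% Poisson interval (counting error only) of 910.9 to 1028. The background for a region of this length was 949.8 from the receptor genes and 786.7 from a second set of 107 silent genes, of the defensin, keratin-associated, trace amine receptor and other families. The first lies inside that interval and the second below it. The subtracted level in library 16 was accordingly 19.1 with the first set and 156.5 with the second. The controls were at 44.7, 160.1 and 185.2 with the first set, and library 13 at 111.7 lay among them while library 16 lay below. With the second set the controls were at 90.1, 187.2 and 205.8, and library 13 at 139.4 and library 16 both lay among them. The relative change of Lama2 was 0.21 (SE 0.37, limma, adjusted p = 0.819) before subtraction and -1.25 (SE 0.84, limma, adjusted p = 0.827) after it, so its direction turned with the background. With the second set it was -0.085 (SE 0.43, limma, adjusted p = 0.986).

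Lama4, the alpha 4 chain of vessel and other mesodermal basement membranes (mm9 chromosome 10, 38686121 to 38829994), had subtracted levels of 69.9, 95.3 and 122.3 in the controls, against 82.5 for library 13 and 78.7 for library 16. Both knockout libraries fell within the control range. Its deposited levels were 82.73, 160.91 and 138.18 in the controls, against 194.55 for library 13 and 290.91 for library 16, and background made up 74.0% of the last. Lama5, the alpha 5 chain of mature epithelial and vessel basement membranes, had subtracted levels of 74.0, 66.3 and 114.0 in the controls, against 100.5 for library 13 and 87.8 for library 16. It too stayed within the control range, whose top came from control library 12 alone. Before subtraction the relative changes of Lama4 and Lama5 were -0.09 (SE 0.36) and -0.10 (SE 0.41), both with an adjusted p of 0.961 in limma. On subtracted levels they were -0.24 (SE 0.36, limma, adjusted p = 0.877) and 0.16 (SE 0.37, limma, adjusted p = 0.896), so the direction of Lama5 turned.

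Nidogens 1 and 2 are paralogous linkers between laminin and collagen IV. Nid1 (mm9 chromosome 13, 13530669 to 13604542) had subtracted levels of 125.3, 172.6 and 140.7 in the controls, against 117.6 for library 13 and 156.5 for library 16. Library 13 lay below the controls and library 16 among them. Its deposited levels were 100.91, 218.18 and 144.55, then 215.45 in library 13 and 260.91 in library 16. Nid2 (mm9 chromosome 14, 20571279 to 20631009) was the weaker of the nidogens, at subtracted levels of 55.8, 58.2 and 64.1 in the controls, against 45.6 for library 13 and 49.8 for library 16. Both knockout libraries were below its narrow control range, although its deposited levels of 98.18 in library 13 and 137.27 in library 16 lay above the 51.82, 87.27 and 70 of the controls. Before subtraction the relative changes were -0.36 (SE 0.35, limma, adjusted p = 0.776) for Nid1 and -0.28 (SE 0.36, limma, adjusted p = 0.818) for Nid2. On subtracted levels they were -0.13 (SE 0.32, limma, adjusted p = 0.944) for Nid1 and -0.34 (SE 0.35, limma, adjusted p = 0.834) for Nid2.

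Hspg2, the perlecan gene (mm9 chromosome 4, 137025518 to 137126545), had subtracted levels of 200.8, 197.7 and 216.9 in the controls, against 152.5 for library 13 and 193.6 for library 16. Library 13 was clearly under the controls, and library 16 just under the lowest of them. Its deposited levels were 157.27, 256.36 and 220.91 in the controls, against 281.82 for library 13 and 337.27 for library 16, so both knockout libraries lay above every control on that scale. Before subtraction the relative change was -0.47 with an SE of 0.34 (limma, adjusted p = 0.767), and the log2 change of the unscaled values was 0.57. On subtracted levels the relative change was -0.28 with an SE of 0.30 (limma, adjusted p = 0.838). In the authors' deposited table Hspg2 had a log2 fold change of 1.26 and a p-value of 0.000715, with values of 18 for the controls and 43 for the knockouts, whose unit is not given. The linear fold was 2.4 in the first fold column of the authors' deposited table and 1.69 in the second. For Hspg2 that direction is the one of the deposited levels and not of the TMM-scaled fit. For Lamc1 it was the reverse. The authors' log2 fold change of -0.1 had the sign of its TMM-scaled relative change, -0.58, and not of its unscaled log2 change, 0.46. Hspg2 and Lamc1 were the only 2 of the 9 genes among the 1140 rows of the authors' deposited table, of which 643 had a positive and 496 a negative log2 fold change.

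**Figure D3:**
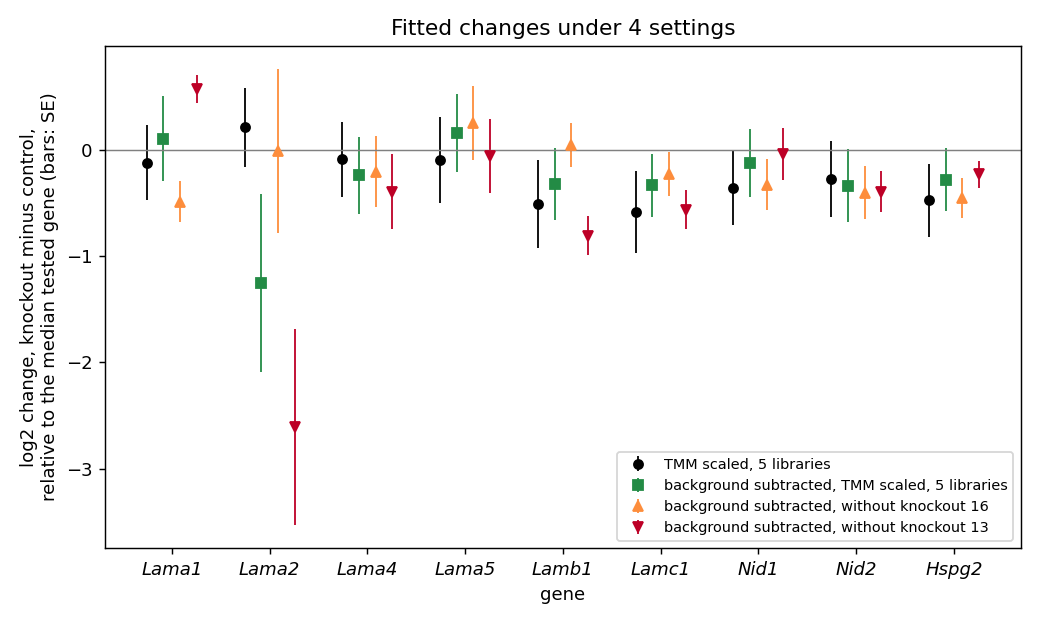
Log2 change, knockout minus control, of each gene relative to the median tested gene under 4 settings, with bars of 1 SE from limma. Hspg2, Lamc1, Nid1 and Nid2 lie below 0 in each setting, and Lama1 lies on opposite sides of 0 without library 13 and without library 16.

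Ratios between genes of 1 library do not depend on the scaling factor, and 11 of them were computed on background-subtracted tags, with no test. The ratio of Lamb1 to Lamc1 was steady in the controls at 0.531, 0.538 and 0.513, and was 0.639 in library 13 and 0.444 in library 16, on either side of them. Lama1 to Lamc1 was 0.437, 0.359 and 0.355 in the controls, against 0.318 for library 13 and 0.843 for library 16. Lama1 thus made up a larger part relative to gamma 1 in library 16 and a smaller one in library 13. The ratio of Lama5 to Lamc1 was 0.233, 0.180 and 0.281 in the controls, against 0.319 for library 13 and 0.324 for library 16. It was the only one of the 8 ratios to Lamc1 that lay outside the controls on the same side in both knockout libraries. Of all genes, 15.4% had a ratio to Lamc1 above every control in both libraries, and 2.68% had one below. Hspg2 to Lamc1 was 0.633, 0.538 and 0.535 in the controls, against 0.484 for library 13 and 0.714 for library 16. Nid2 to Nid1 was 0.445, 0.337 and 0.456 in the controls, against 0.388 for library 13 and 0.319 for library 16.

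**Figure D4:**
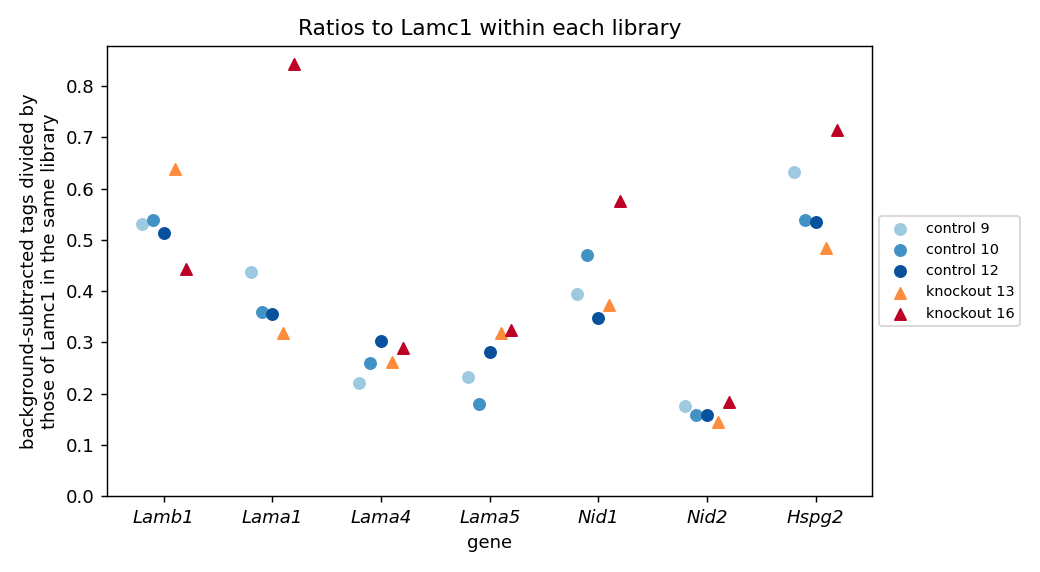
Background-subtracted tags of 7 genes divided by those of Lamc1 in the same library, with circles for controls and triangles for knockout libraries. For Lama5 both triangles lie above the controls, and for Lama1 and Lamb1 they lie on opposite sides.

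Against the subtracted control range, library 13 held 0 of the 9 genes above, 4 within and 5 below. Library 16 held 1 above (Lama1), 3 within and 5 below. Of all genes, 22.6% lay above and 20.8% below in library 13, and 44% and 37.8% in library 16. Over the 5 libraries the profile of Lamc1 was nearest to Nid2 among the other 8 genes, with a mean absolute difference of 0.11 in log2 ratio to the own mean. Next came Lamb1 at 0.12 and Lama4 at 0.13, and Lama2 was farthest at 0.89. Of 8305 other autosomal genes with a mean of at least 20, Zfp961, Pet112, Arhgef11, Ubr4 and Ap3b1 were nearest, at 0.02 to 0.04, and 266 were nearer than Nid2.

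Other genes of the basement membrane were split. Of 30 listed, 27 were measured and none passed the test: 13 lay above and 14 below the median gene. Their median relative change was -0.13 before subtraction and -0.07 after it. The 3 of highest subtracted level per kilobase of region were Serpinh1, a collagen chaperone, Sparc, a collagen-binding matrix protein, and Agrn, which encodes the proteoglycan agrin. Serpinh1 had subtracted levels of 271.2, 268.6 and 259.4 in the controls, against 248.8 for library 13 and 100.6 for library 16. Agrn was at 211.6, 211.8 and 249.6, then 157.9 and 132.7, below every control in both knockout libraries. Its relative change was -0.996 (SE 0.40, limma, adjusted p = 0.767) before subtraction and -0.65 (SE 0.30, limma, adjusted p = 0.827) after it. Sparc was at 250.4, 213.4 and 217.0, then 241.6 in library 13 and 121.3 in library 16. Chosen after their values were seen, the laminin genes Lama3 and Lamb3 were each highest in library 16. Lamb3 was at 22.8, 7.70 and 6.66 in the controls, against 5.73 for library 13 and 63.7 for library 16. Col4a1 and Col4a2, from the same later choice, encode the main collagen IV chains. Col4a1 was at 184.7, 190.7 and 234.1 in the controls, against 148.0 for library 13 and 401.0 for library 16, and Col4a2 at 159.4, 128.9 and 171.8, then 130.6 and 344.0.

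Laminin receptors and their partners did not pass the test either. Of 24 listed, 20 were measured, 7 above and 13 below the median gene, at a median of -0.16 before subtraction and -0.09 after it. Itgb1 itself had a relative change of -1.40 (SE 0.49, limma, unadjusted p = 0.0182, adjusted p = 0.767) before subtraction. After it the change was -1.18 (SE 0.40, limma, unadjusted p = 0.0216, adjusted p = 0.827). Besides Itgb1, the highest per kilobase of region were Bcam, a laminin alpha 5 receptor, and Pomt2, an enzyme that adds the mannose on which the laminin-binding sugar of dystroglycan is built. Bcam was at subtracted levels of 73.9, 55.7 and 63.1 in the controls, against 75.2 for library 13 and 50.7 for library 16. Pomt2 was at 78.2, 81.9 and 101.1, then 73.6 and 54.3. Dag1, the dystroglycan gene, and Itga6, the laminin-binding integrin alpha 6 subunit, were chosen after their values were seen. Dag1 was at 101.4, 119.8 and 119.4 in the controls, against 125.8 for library 13 and 92.9 for library 16, and Itga6 at 118.9, 125.4 and 147.2, then 115.6 and 94.3.

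The labels call the samples epithelial pituitary cells. All 15 pituitary epithelial markers were measured, and none of the 14 kept after subtraction was at 0 in any library. Markers of other cells held tags too: all 14 head mesenchyme and 14 endothelial markers were measured. Of these only Sox17 was at 0 after subtraction, in 1 control library. A remainder above 0 does not by itself show expression, since silent genes scatter about the rate subtracted. In library 16 the quartiles of receptor genes of at least 5 kb were 1.16 and 1.77 tags per kilobase. Summed subtracted levels of head mesenchyme markers were 1095 to 1240 in the controls, against 905.6 for library 13 and 622.8 for library 16. Of these 14 markers 4 lay above and 9 below every control in library 16. Chosen after their values were seen, Col3a1 was at 131.0 there, against 409.5 to 491.6 in the controls, and Prrx2 at 55.1, against 3.80 to 9.82. Summed levels of endothelial markers were 442.4 to 481.6, 414.9 and 734.6, and those of pituitary epithelial markers 1288 to 1708, 1873 and 877.7. Mural markers, of which 8 of 9 were measured and none was at 0, summed to 331.2 to 360.8, 279.5 and 453.8. Skeletal muscle markers, 8 of 10 kept after subtraction, summed to 76.9 to 165.5, 167.8 and 237.2, with Acta1 and Chrna1 at 0 in some control libraries. Neural markers summed to 802.2 to 1079, 645.6 and 469.7. Map2, chosen after its values were seen, was the largest part of each control sum. It was at 450.0 to 484.3 there and at 87.5 in library 16. Its deposited level in library 16, 482.73, lay within the controls at 362.73 to 635.45, over a region of 266.5 kb. Of the 11 neural markers 2 lay above and 7 below every control in library 16. Markers of oral and surface epithelium summed to 223.3 to 283.6, 313.8 and 379.0. Erythroid markers summed to 297.6 to 524.0, 200.6 and 686.5, and macrophage markers to 55.8 to 75.1, 52.9 and 138.1. The endothelial, mural, muscle, oral, erythroid and macrophage sums were thus all highest in library 16, as were Lama1, Col4a1 and Col4a2. The vessel chain Lama4 lay within the controls there. Above every control in library 16 lay 7 of 8 muscle, 6 of 9 oral, 5 of 7 erythroid and 4 of 7 macrophage markers. Below every control there lay 0 muscle, 1 oral, 0 erythroid and 2 macrophage markers. Shares of all genes were 44% above and 37.8% below. The 2 macrophage markers, Ptprc and Aif1, were at 0 there. Hba-x, also chosen after its values were seen, was at 505.8 of the erythroid 686.5. Within the endothelial list 7 of 14 markers lay above and 4 below every control in library 16. Chosen after their values were seen, Flt1 (191.8 in library 16) and Erg (140.2) led that sum, and without them it was 331.7 to 403.9 in the controls and 402.6 in library 16. Kdr, which encodes the main VEGF receptor of endothelium, was at 34.1 in library 16, below its controls at 56.2 to 66.7. Within the mural list 5 of 8 markers lay above and 3 below, and without Myh11 (103.9 in library 16) the sum was 301.7 to 346.9 in the controls and 349.9 in library 16. The part of these cells in the levels of the 9 genes was not tested. In whole glands fewer cells of a type and less RNA per cell cannot be told apart.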

How the data were processed

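The values of the table of all genes are a signal over each gene region, scaled by the authors to 10000000 total tags in a sample, per the file headers. Strand-specific libraries were made from total RNA depleted of ribosomal RNA, per the labels' protocols. Bowtie2, HOMER, edgeR and mm9 are named in the submitters' processing notes, with no roles or versions. All regions are listed on the plus strand, so antisense genes cannot be told apart. The longest region per name was kept. Every deposited value (100.0%) came out whole, within 0.01 reads, when divided by 10/11, as for 11000000 tags per library, and these reads fed edgeR 4.0.16 and DESeq2 1.42.0. That total is the same in each library, and no source here says whether tags were drawn down to it. Poisson intervals cover only the counting error of the tags listed. The authors' deposited table of changed genes gives a log2 fold change, a linear fold (ratio), a second fold column of smaller values for the genes printed, a p-value and a score per genotype of unstated unit.

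TMM-scaled values were fitted as log2(value + 1) in limma 3.58.1 under R 4.3.3, with a mean-variance trend, over 19313 genes with a mean of at least 1, with Benjamini-Hochberg adjustment, a threshold of 0.05 and no covariate. Fold changes on this scale understate changes of low genes. All 9 measured genes passed the filter. Background came from 392 autosomal olfactory and vomeronasal receptor genes. Exon lengths are GENCODE M21 merged exons (GRCm38), and no coordinates were moved between builds. The fits were tested on simulated data. The members, the gene lists and the tests were chosen with earlier results of these data known. All measured members are named. Of the basement membrane and receptor lists, any genes past the threshold or else the 3 of highest level per kilobase are named. Named too are the 5 genes nearest to Lamc1. All other named list genes, those of the marker lists included, were picked after their values were seen. Some genes of the lists are not reported here.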

Additional observations from a re-analysis of the deposited data

How the results depend on the processing

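Relative to the median gene, Hspg2, Lamc1, Nid1 and Nid2 kept their direction in all 16 alternatives. None of the 9 genes passed the threshold in a fit with both knockout libraries. Of 144 gene and alternative pairs 127 kept their direction and 17 turned. A scaling factor moves all genes of a library nearly alike, so this measure cannot show what scaling does. On unscaled values Hspg2, Lamc1, Nid1 and Nid2 had log2 changes of 0.57, 0.46, 0.68 and 0.76, before the median gene's 0.97 was taken off. With background subtracted (receptor genes, then the second silent set) Lama1 turned to 0.10 and 0.039, Lama2 to -1.25 and -0.085, and Lama5 to 0.16 and 0.096. With a library left out, Lama1 ran from -0.38 (without knockout library 16) to 0.032 (without 13), Lama2 from -0.10 (without 16) to 0.42 (without 13), Lama4 from -0.22 (without control library 9) to 0.085 (without 12), Lama5 from -0.49 (without 13) to 0.20 (without 12; 0.19 without 16) and Lamb1 from -1.16 (without 13) to 0.032 (without 16). In fits added after the data were seen, with background subtracted, Lama1 turned to 0.57 and Lama2 to -2.61 without knockout library 13. Without knockout library 16 Lama2 turned to -0.012, Lama5 to 0.25 and Lamb1 to 0.047. The cause was not tested.

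The count of called genes, 0 in the main fit, was 25 with DESeq2 (all lower), and with a library left out it ran from 0 to 2461, the highest without knockout library 13 and 3 without knockout library 16. With background subtracted it was 2725 without knockout library 13, with 1 of the 9 genes (Lama1), and 0 without knockout library 16. The median change of the 9 genes ran from -0.49 to -0.17 with a library left out, the lowest without knockout library 13, and was -0.40 there with background subtracted and -0.23 without knockout library 16. The number of the 9 genes whose groups did not overlap was 6 on deposited values, all higher, 2 (Hspg2 and Nid2) with the second silent set, and 3 to 8 with a library left out. The 8 came without knockout library 13, 2 higher and 6 lower, where 43.8% of all genes lay higher and 39.8% lower. Without knockout library 16 it was 4, all lower, beside 16.9% of all genes. The other filters, pseudocounts and the edgeR test changed no call among the 9 genes. No paired analysis was possible because the groups share no replicate numbers. A left-out knockout library leaves 1, which is assumed to vary like the controls. Depth limits genes of few tags, such as Nid2 at 51.82 and Lama5 at 60.91 in control library 9, and background limits Lama2.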
